A study of Mus musculus with 8 samples.

Results

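The cytosolic ribosomal protein genes were followed through olfactory bulb arrays of mice reared in 2 kinds of cage and exposed to diesel exhaust (DE) or clean air. The members were taken from the gene names of the array: names that begin with Rpl or Rps and a digit, and Rpsa, without the Rps6k kinases and without names marked as pseudogenes by -ps. This gave 83 of the 34797 gene names on the array, on 186 probes. Of these, 49 names were Rpl genes of the 60S (large) subunit and 34 were Rps genes or Rpsa of the 40S (small) subunit. Rps19bp1, which the naming rule took in, encodes a protein that binds a ribosomal protein and is not itself one. Another 8 names were paralogs of core ribosomal protein genes, and the other 74 were core genes.

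The study asked whether the rearing environment alters the response of the olfactory bulb to DE. All mice were male C57BL/6J and 56 days old. C-C mice were reared in a standard cage and breathed clean air, and C-DE mice came from the same cage type and inhaled DE at 90 µg/m3 for 8 hours a day on 28 days. EE-C and EE-DE mice were reared from the perinatal period with environmental enrichment (a larger cage with a running wheel, a house, blocks and tubing) and then received clean air or DE at the same dose. RNA of several mice was combined into 1 pool for every group, and 2 arrays were run from each pool, all 8 on 1 slide. A group is therefore 1 replicate: no test of exposure, rearing or their combination could be made, and every range below is that over the 4 ways of pairing the arrays of 2 pools, which holds array noise and nothing of the variation between mice. Both standard-cage pools lay in the first slide column and both enriched pools in the second, and rearing and slide column cannot be told apart.

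A cytosolic ribosome is built from ribosomal RNA and a fixed set of proteins, nearly all of them present in a single copy, and cells make these proteins in step. The mRNAs of vertebrate ribosomal proteins begin with a 5′ terminal oligopyrimidine (TOP) tract, a C followed by an unbroken run of C and T, through which mTOR signalling and Larp1 control their translation. Ribosomal protein mRNAs are among the most abundant in neurons, and part of them is carried into axons and dendrites. Processed pseudogenes of these genes are scattered over the mouse genome, so a probe may also read transcripts of near-identical copies.

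Windows around the RefSeq transcription start (assembly GRCm38.p6) are shown for the 10 measured genes in which the tract could be read at the annotated start, because they show the motif described above. Each window runs 5′ to 3′ on the gene's strand from 10 bases before the start to 20 bases from it, and the capitals mark the tract, which begins at the start itself.
Rpl14 (chr9:120571507-120571536, plus strand): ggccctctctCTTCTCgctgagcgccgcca
Rpl15 (chr14:18270967-18270996, minus strand): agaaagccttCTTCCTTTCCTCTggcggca
Rpl28 (chr7:4792955-4792984, plus strand): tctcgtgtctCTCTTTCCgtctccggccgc
Rpl35 (chr2:39005112-39005141, minus strand): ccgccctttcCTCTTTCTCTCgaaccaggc
Rpl35a (chr16:33056472-33056501, plus strand): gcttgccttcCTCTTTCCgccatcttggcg
Rpl38 (chr11:114668570-114668599, plus strand): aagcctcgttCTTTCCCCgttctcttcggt
Rps15a (chr7:118116128-118116157, minus strand): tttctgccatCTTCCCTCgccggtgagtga
Rps21 (chr2:180257369-180257398, plus strand): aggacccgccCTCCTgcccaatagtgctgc
Rps27 (chr3:90213629-90213658, minus strand): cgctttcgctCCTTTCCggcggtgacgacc
Rps6 (chr4:86857348-86857377, minus strand): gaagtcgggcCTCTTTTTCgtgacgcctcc

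The search took C at the start and at least 4 further C or T on the sense strand only. It found the tract at 12 of the 75 annotated starts of 63 member genes (16%), against 2.51% of 32851 starts in the table and 0 of 75 starts of mitochondrial ribosomal protein genes. The other 20 member genes were not in the table of starts. An annotated start a base or more from the true one hides a tract, so the absence of a match says only that these letters do not stand at that position.

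Of the 186 member probes, 153 probes of 76 genes were measured on every array, among 19256 probes of 15075 gene names that passed the same filter (well above background on all 8 arrays and no outlier flag). Of the 33 others, 26 carried an outlier flag on the local background of the spot, 5 were not well above background on all arrays and 2 had no accession. The paralogs Rpl10l, Rpl39l and Rpl3l were well above background on 0, 2 and 7 of the 8 arrays at best, and no value is given for them. Rpl32, Rpl36al, Rps10 and Rps18 were left out by background flags alone. The signals of the 153 probes were high: their medians over the arrays ran from 47.3 to 162445 with a middle value of 31814, and 126 of them reached 10000. No member spot was saturated. In 46 genes several probes passed, up to 5 per gene, and no gene had probes that lay 1.5-fold or more apart in any comparison. The 4 X-linked genes and the autosomal members together lay on 19 chromosomes.

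Levels below are log2 processed signals relative to the 75th percentile of the array, and a log2 difference is the mean of the 2 arrays of one pool minus that of the other. The 75th percentile signal ran from 644 to 716, and the share of spots well above background from 68.0% to 70.6%, with 56.7% on the first EE-DE array. Markers of olfactory bulb projection neurons (5 of 5) and interneurons (6 of 6) were above background on all arrays. The 6 measured markers of supporting cells of the olfactory mucosa, a tissue outside the bulb, were also above background on all arrays and differed between pools, with a probe median of -1.2 in the C-DE/C-C comparison and 1.62 in the EE-DE/C-DE comparison. In the 2 arrays of the EE-C pool, 8 of 256 blocks of the array surface differed by over 0.2, and 3 member probes lay there (Rps27a, Rps27 and Rpl3).

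The ribosomal protein probes kept within a narrow band in all 5 comparisons. None of the 153 differed by 1.5-fold (0.58 on the log2 scale) in any of them. Across all probes, 0.566% were past 1.5-fold in C-DE/C-C, 0.872% of them in EE-DE/EE-C, 0.737% in EE-C/C-C, 0.654% in EE-DE/C-DE and 0.81% in EE-DE/C-C. At 1.2-fold, 1 member probe was past the threshold in EE-C/C-C (Rps4y2) and 1 in EE-DE/C-DE (Rpl6), both lower, and 0 in the other 3, while the share of all probes past it was 4.66%, 5.4%, 6.01%, 4.8% and 6.47% in the same order. The SD of the differences over member probes was 0.062, 0.069, 0.069, 0.064 and 0.079, against 0.131, 0.150, 0.149, 0.144 and 0.152 over all probes. Bright probes spread less in general: 1450 other probes with a signal of at least 10000 had SDs between 0.069 and 0.109.

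Duplicate arrays of one pool set the noise for these values. Over the member probes, the first array minus the second had an SD of 0.083 in the C-C pool, 0.067 in the C-DE pool, 0.120 in the EE-C pool and 0.070 in the EE-DE pool. Its median was 0.049, 0.029, 0.037 and 0.000 in the same order. Whole-family offsets between 2 arrays of the same RNA thus came close to the largest family median given below. A single member probe, Rps4y2, lay over 1.5-fold apart between duplicates, by 0.75 in EE-C.

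**Figure D1:**
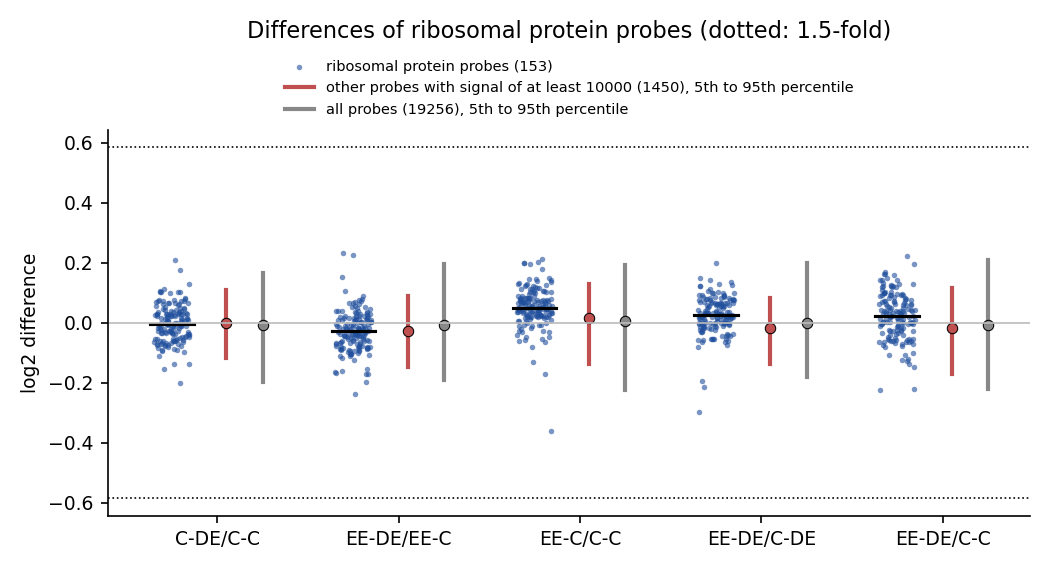
Log2 differences (vertical axis) of the 153 ribosomal protein probes in the 5 comparisons (horizontal axis), with the 5th to 95th percentile of the 1450 other probes with a signal of at least 10000 and of all 19256 probes, black bars and outlined dots for medians. No member point reaches the 1.5-fold line at 0.58, and the EE-C/C-C points are centred at 0.051, a direction that turned to -0.007 when the mitochondrial ribosomal proteins set the scale.

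Enriched rearing in clean air (EE-C/C-C) gave the most one-sided pattern. Of the 153 probes, 130 were higher in EE-C (85.0%, against 52.1% of all probes), with a median of 0.051 (range over pairings 0.001 to 0.098) against 0.006 over all probes, which is a 1.04-fold difference, and the median was -0.007 on the mitochondrial scale described below. By gene, 67 of 76 were higher in EE-C. Both EE-C arrays exceeded both C-C arrays for 56 probes and lay below both for 3, while 19.8% of all probes were higher and 17.6% lower in that way. The 92 probes of the 60S subunit had a median of 0.048 and the 60 probes of the 40S subunit 0.053, so neither subunit stood apart. Among bright probes alone, the 126 member probes had a median of 0.053 (87.3% higher) and the 1450 others 0.017 (59.6% higher). The 12 member probes with a signal under 1000 had a median of 0.009, and 7 of them were higher.

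The mitochondrial ribosomal proteins, which are encoded in the nucleus and build the separate ribosome of the mitochondrion, lay higher in EE-C by a similar amount. Of their 82 probes, 67 were higher in EE-C/C-C, with a median of 0.059 (0.047 to 0.089). When their median replaced the 75th percentile as the scale, the cytosolic median in EE-C/C-C was -0.007, so the direction of the cytosolic family held against the array as a whole and not against the mitochondrial family. Both EE-C arrays contributed to the difference. After centring each probe on its mean over the 8 arrays, the family median was 0.053 and 0.017 on the EE-C arrays, 0.003 and -0.039 on the C-C arrays, -0.012 and -0.037 on the C-DE arrays and -0.003 and 0.008 on the EE-DE arrays. The 2 EE-C arrays were the highest of the 8, and the first C-C array lay between them and the second C-C array. Markers of other cells differed in the same comparison: the 6 oligodendrocyte probes had a median of -0.12 (-0.17 to -0.097) and the 7 probes of mucosal supporting cells -0.32 (-1.24 to 0.59). Their part in the ribosomal protein values was not tested, and in bulk RNA a change in the number of cells cannot be told apart from a change in RNA per cell.

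**Figure D2:**
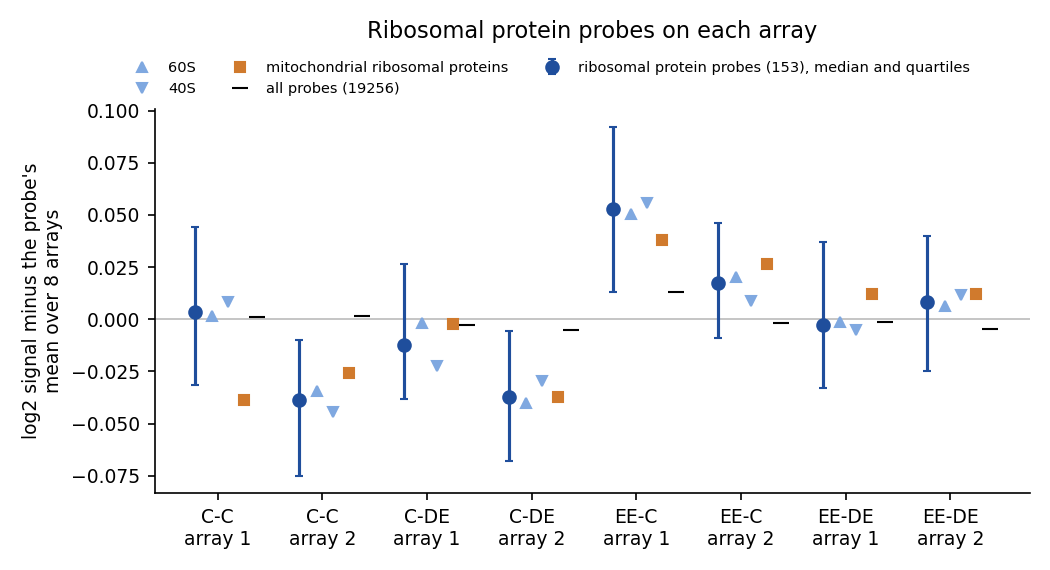
Centred log2 level (vertical axis) of the 153 ribosomal protein probes, of the 60S and 40S probes, of the 82 mitochondrial ribosomal protein probes and of all 19256 probes on each of the 8 arrays (horizontal axis), with medians and, for the members, quartiles. The EE-C arrays hold the highest member medians (0.053 and 0.017) and the second C-C array the lowest (-0.039). The mitochondrial medians are also highest on the EE-C arrays, and relative to them the EE-C/C-C median of the members was -0.007.

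Under DE, rearing gave a difference of the same sign. In the EE-DE/C-DE comparison, 106 of 153 probes were higher in EE-DE (69.3%, against 49.9% of all probes), with a median of 0.027 (0.015 to 0.046) against -0.000 over all probes, and with mitochondrial ribosomal proteins as the scale the median was -0.002. Here 58 probes were higher and 14 lower without overlap between the arrays, against 21.1% of all probes in each direction. Among bright probes, the 126 members had a median of 0.029 and the 1450 others -0.016. The 12 member probes with a signal under 1000 went the other way, with a median of -0.041 (-0.080 to 0.006) and 2 of 12 higher. The 60S median was 0.024 and the 40S median 0.030. All 7 probes of mucosal supporting cells were past 1.5-fold in this comparison, with a median of 1.62 (1.06 to 2.19). All 7 probes of olfactory sensory neurons, whose axons enter the bulb, were higher without overlap, with a median of 0.21 (0.16 to 0.33), as were all 3 probes of red blood cells (0.21, from 0.09 to 0.35). The 6 interneuron probes had a median of -0.042, and 3 of them were lower without overlap. The part of these cells in the ribosomal protein values was not tested.

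The 2 rearing comparisons share no array, so they could be set side by side. In both, 34 member probes of 29 genes were higher with enrichment without overlap (22.2% of the members, against 6.61% of all probes, 7.59% of the bright others and 28.0% of the 82 mitochondrial ribosomal protein probes), and 1 was lower in both, a probe of Rpl23 (5.95% of all probes). With mitochondrial ribosomal proteins as the scale, 8 member probes were higher in both. The share of all probes on that scale is not given, so this count cannot be set against it. All 4 pools lay in the same 2 slide columns in both comparisons.

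Rps15, a 40S protein needed for the export of the small subunit from the nucleus, had the highest value of any gene in both. Its 2 probes are shown because they read separate stretches of the mRNA and gave the same pattern. On the mm9 assembly of the array annotation, the first lay at chr10:79756716-79756775, and the second mapped over 841 bases of chr10:79755554-79756394, longer than its 60 bases, so its match crosses an intron. No base is capitalised, since no part is singled out.
Rps15 probe 1: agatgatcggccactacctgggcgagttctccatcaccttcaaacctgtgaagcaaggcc
Rps15 probe 2: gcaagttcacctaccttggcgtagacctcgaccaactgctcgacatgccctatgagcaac
Probe 1 read 5.18 and 5.05 in C-C, 5.18 and 5.09 in C-DE, 5.30 and 5.33 in EE-C and 5.20 and 5.33 in EE-DE. Probe 2 read 4.11 and 3.94 in C-C, 4.01 and 3.96 in C-DE, 4.20 and 4.27 in EE-C and 4.14 and 4.23 in EE-DE. On both probes every enriched array lay above every standard-cage array of the same exposure. The log2 difference in EE-C/C-C was 0.20 (0.12 to 0.28) on probe 1 and 0.21 (0.09 to 0.33) on probe 2, and in EE-DE/C-DE it was 0.13 (0.02 to 0.24) and 0.20 (0.13 to 0.27). Without the second C-C array, both probes gave 0.13 in EE-C/C-C, and probe 1 gave 0.06 in EE-DE/C-DE without the second EE-DE array.

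Rps3, a 40S protein near the mRNA entry channel that also has a DNA repair activity, was higher with enrichment in both comparisons, at 0.16 and 0.08 as the mean of its 3 measured probes. Its dimmest probe read 0.60 and 0.73 in C-C, 0.72 and 0.76 in C-DE, 0.85 and 0.87 in EE-C and 0.89 in both EE-DE arrays, a difference of 0.20 (0.12 to 0.27) in EE-C/C-C and 0.15 (0.12 to 0.18) in EE-DE/C-DE. The enriched arrays again lay above the standard-cage arrays. A bright Rps3 probe gave 0.18 and 0.10 in the 2 comparisons, and another gave 0.10 and -0.00, so the probes of this gene differed in size.

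Rpl22l1 and Rpl37 completed the highest values in EE-C/C-C. Rpl22l1, the paralog that can replace Rpl22 in the 60S subunit, read 5.02 and 5.00 in C-C, 5.00 and 4.96 in C-DE, 5.31 and 5.12 in EE-C and 5.06 and 5.04 in EE-DE. Both EE-C arrays stood above the other 6, and the difference was 0.20 (0.10 to 0.30), which was 0.06 after normexp background correction and 0.11 without the first EE-C array. Its core partner Rpl22 gave 0.13 and 0.08 on its 2 probes. Rpl37, a small zinc-binding 60S protein, gave 0.20 (0.04 to 0.36) in EE-C/C-C, but -0.02 in EE-DE/C-DE, and its first C-C array (7.28) lay well below the second (7.57). Without that array the EE-C/C-C value was 0.05.

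In the EE-DE/C-DE comparison, the next highest values belonged to the 60S proteins Rpl28 and Rpl7. Rpl28 read 4.91 on both C-DE arrays against 5.00 and 5.10 in EE-DE, a difference of 0.14 (0.09 to 0.19), and it carries one of the tracts shown above. The Rpl7 value, from 1 of 4 probes, was 0.14, but its arrays overlapped (-0.11 to 0.38), and it was -0.05 without the second C-DE array. The mean of the 4 Rpl7 probes was 0.05.

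Most of the lowest values in EE-C/C-C came with a low first EE-C array. Rps4y2 is named in RefSeq as Rps4l, a transcribed pseudogene, and read 1.44 and 1.52 in C-C, 1.68 and 1.41 in C-DE, 0.75 and 1.49 in EE-C and 1.35 on both EE-DE arrays. The first EE-C array alone was low, so the EE-C/C-C difference of -0.36 (-0.77 to 0.05) became 0.01 without it. Rpl5, which binds 5S ribosomal RNA, behaved alike: it read 3.95 on that array and 4.22 to 4.30 on the other 7, and its -0.17 became 0.00 without it and was -0.46 after normexp correction. The other low values in EE-C/C-C were -0.13 for 1 of 3 Rps27 probes, -0.08 for 1 of 4 Rpl31 probes and -0.06 for Rps25. As the mean of all its probes, Rps27 gave -0.01 and Rpl31 gave 0.02. Without the first EE-C array, the value of that Rps27 probe was -0.003 and that of the Rpl31 probe was 0.03. Rps25, a 40S protein, was lower without overlap (-0.11 to -0.02), and its value was -0.11 without that array and -0.02 without the second EE-C array.

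A probe of Rpl6, a 60S protein, gave the lowest value in EE-DE/C-DE, -0.30 (-0.32 to -0.27). It read -3.78 and -3.75 in C-DE and -4.05 and -4.07 in EE-DE, and its signal of 47.3 was the lowest of the 153 measured probes. The other 2 Rpl6 probes gave 0.02 and -0.03. A dim probe of Rpl39, a protein of the exit tunnel, gave -0.22 (-0.36 to -0.07), or -0.12 without the first EE-DE array, while its other probes gave 0.12 and 0.10. Rps4y2 gave -0.20 (-0.33 to -0.06) in this comparison and -0.06 without the first C-DE array. Rpl8, read by a bright probe, gave -0.08 (-0.13 to -0.03), with both EE-DE arrays below both C-DE arrays, and -0.05 without the first EE-DE array.

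**Figure D3:**
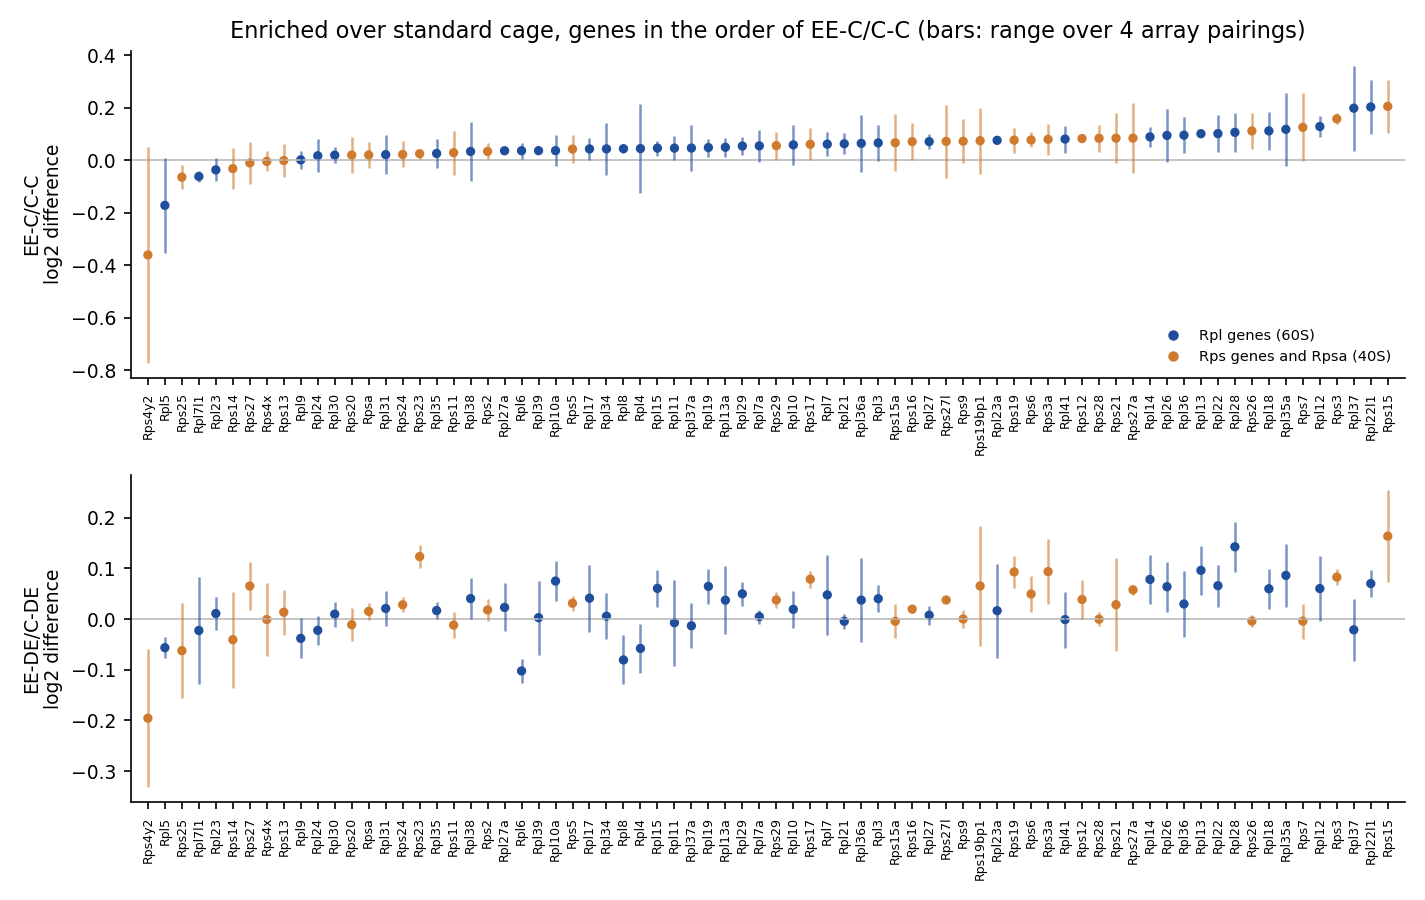
Log2 difference (vertical axis) of 74 of the 76 genes in EE-C/C-C (top) and EE-DE/C-DE (bottom), with genes along the horizontal axis in the order of EE-C/C-C, Rpl genes in blue and Rps genes in orange, and bars for the range over the 4 pairings. Most genes lie above 0 in both (67 and 53 of all 76), with Rps15 at the right end of both. With mitochondrial ribosomal proteins as the scale the family medians were -0.007 and -0.002.

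DE in the standard cage (C-DE/C-C) left the family centred at 0. Of 153 probes, 74 were higher and 79 lower in C-DE, with a median of -0.003 (-0.037 to 0.026) against -0.007 over all probes, and the sign turned with quantile normalization (0.012) and with the authors' series table (0.007). Without overlap, 24 probes were higher (18.6% of all probes) and 33 lower (22.3% of all probes). The mucosal supporting cell markers were lower in the same comparison with a median of -1.2 (-1.79 to -0.50). None of the 153 ribosomal protein probes reached 1.5-fold in C-DE/C-C, while these markers were all past it. The 7 olfactory sensory neuron probes were also lower (median -0.20, from -0.34 to -0.10), 4 of them without overlap.

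With enrichment (EE-DE/EE-C), 102 of 153 probes were lower in EE-DE, with a median of -0.027 (-0.051 to -0.004) against -0.007 over all probes, which was 0.001 after quantile normalization. Without overlap, 47 were lower (19.5% of all probes) and 13 higher (14.7% of all probes). The 1450 other bright probes had a median of -0.028 in this comparison, the same size as that of the bright members, -0.028. The 60S median was -0.023 and the 40S median -0.036. Neither exceeded the largest offset between duplicates. Of the 7 probes of mucosal supporting cells, 6 were past 1.5-fold and higher in EE-DE, with a median of 0.74 (-0.17 to 1.78) and overlap between the arrays on all 7. The 6 interneuron probes had a median of -0.053, and 3 of them were lower without overlap. The part of these cells in the ribosomal protein values was not tested.

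The 2 exposure comparisons share no array either. In both, 18 member probes of 16 genes were lower in DE without overlap (11.8%, against 6.15% of all probes and 10.9% of the bright others), and 6 were higher (3.92%, against 3.95% of all probes). The share that was lower was near that of other bright probes.

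Among those 18, Rpl14, a 60S protein, gave -0.15 (-0.24 to -0.07) on its bright probe in the standard cage (C-DE/C-C) and -0.20 (-0.32 to -0.08) under enrichment (EE-DE/EE-C). That probe read 6.22 and 6.11 in C-C, 6.04 and 5.98 in C-DE, 6.33 and 6.14 in EE-C and 6.07 and 6.01 in EE-DE, so all 4 DE arrays lay below all 4 clean-air arrays. Without the first C-C array its C-DE/C-C value was -0.10, and without the first EE-C array its EE-DE/EE-C value was also -0.10. The other Rpl14 probe, with a signal of 794 to 1033, gave -0.04 and -0.02, with overlap between the arrays in both.

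Rpl35a, a 60S protein whose loss in humans is one cause of Diamond-Blackfan anaemia, gave -0.14 (-0.24 to -0.03) with DE in the standard cage and -0.17 (-0.26 to -0.08) with DE under enrichment. It read 4.03 and 3.84 in C-C, 3.79 and 3.81 in C-DE, 4.09 and 4.01 in EE-C and 3.83 and 3.93 in EE-DE. The 4 DE arrays overlapped with the second C-C array only across rearing groups, and within each rearing group they lay lower. Without the first C-C array the C-DE/C-C value was -0.04. A second Rpl35a probe, which a background flag left out, gave -0.05 and 0.01. The pair is shown because the probes share 23 bases of the mRNA and differ there at 2 positions, in capitals.
Rpl35a probe 1 (mm9, mapped over 1196 bases of chr16:33057593-33058788): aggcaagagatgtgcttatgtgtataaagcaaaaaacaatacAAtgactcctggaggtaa
Rpl35a probe 2 (mm9, chr16:33058766-33058825): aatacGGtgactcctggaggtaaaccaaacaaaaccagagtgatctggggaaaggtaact
Counted from the first base of the shared stretch, the differences are G6A and G7A, with the base of probe 2 written first. Whether the mismatched bases bear on the value of probe 1 was not tested.

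Rpl7l1, a paralog of Rpl7 that takes part in ribosome assembly, gave -0.20 (-0.23 to -0.17) in the standard cage and -0.16 (-0.25 to -0.07) under enrichment. It read -1.82 and -1.83 in C-C, -1.99 and -2.06 in C-DE, -1.87 and -1.90 in EE-C and -1.97 and -2.12 in EE-DE, and all 4 DE arrays lay below all 4 clean-air arrays. Its signal was low, at 155 to 199. One of 4 probes of its core partner Rpl7 gave -0.14 in the standard cage and -0.08 under enrichment, and the other 3 lay between -0.01 and 0.01 in C-DE/C-C.

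Rpl3, a protein near the peptidyl transferase centre, gave -0.11 and -0.17 on one probe and 0.03 and 0.04 on another. The first of these lay in a block where the EE-C arrays differed, and leaving out the first EE-C array brought its EE-DE/EE-C value to -0.02. Rps16, a 40S protein that reaches the decoding site, gave -0.17 in EE-DE/EE-C with overlap on 1 of 3 probes, and -0.03 without that array. The mean of its 3 probes was -0.05 with all arrays.

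A few other probes had positive values under DE. Rpl23a, a 60S protein at the exit of the tunnel, gave 0.18 (0.11 to 0.24) in C-DE/C-C on 1 of 2 probes, without overlap. That probe gave 0.11 without the first C-DE array, and the mean of the 2 probes was 0.10 with all arrays. Rpl37 gave 0.13 in the same comparison with overlap (-0.05 to 0.32), and -0.01 without the low first C-C array. A probe of Rps4x, the X-linked 40S gene, gave 0.10 and 0.08 in the 2 comparisons, but the array annotation placed it on chromosome 3, and the other Rps4x probe gave -0.06 and -0.03.

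A further 4 probes had positive values in EE-DE/EE-C that were smaller or changed sign without the first EE-C array. The Rps27 probe gave 0.15 (0.01 to 0.30) without overlap, which was 0.02 without that array and 0.39 after normexp correction. Rps4y2 gave 0.23, Rpl5 0.11 and a probe of Rpl23, a 60S protein, 0.09, all with overlap. Without the first EE-C array these 3 values were -0.14, -0.07 and -0.04 in the same order. Rps27 and Rpl23 each had 3 measured probes, with means of 0.02 and -0.01 in EE-DE/EE-C.

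**Figure D4:**
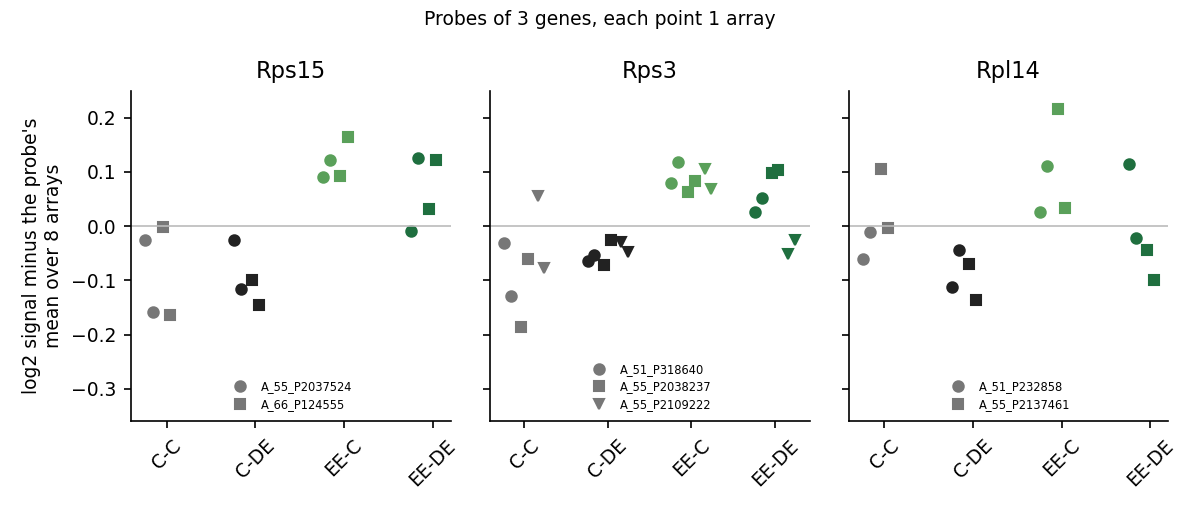
Log2 level of each probe of Rps15, Rps3 and Rpl14 on the 8 arrays, minus the probe's mean over the arrays (vertical axis), with groups along the horizontal axis and 1 marker shape per probe. The Rps15 probes share a pattern, at 0.20 and 0.21 in EE-C/C-C, while the Rpl14 probes differ (-0.15 and -0.04 in C-DE/C-C).

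EE-DE/C-C, the comparison that changes rearing and exposure together, shares its arrays with the others and adds no independent values. Its median was 0.023 (-0.009 to 0.046), with 98 of 153 probes higher, against -0.006 over all probes, and -0.027 with mitochondrial ribosomal proteins as the scale. Without overlap, 55 were higher (22.1% of all probes) and 23 lower (24.8% of all probes). The lowest values were -0.22 for Rpl7l1 and -0.22 for the dim Rpl6 probe (-0.15 without the second C-C array). Next came -0.15 for the dim Rpl39 probe (-0.06 without the first EE-DE array), -0.14 for 1 of 2 Rpl24 probes and -0.13 for Rps4y2. Among the highest were 0.22 for the dimmest of 3 Rps3 probes, 0.16 for a probe of Rpl12, a protein of the stalk base, and 0.16 for a probe of Rpl26. As the mean of all its probes, Rpl24 gave -0.045 and Rps3 gave 0.105.

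The difference between the DE effects in the 2 rearing conditions, EE-DE/EE-C minus C-DE/C-C, had a median of -0.023 over the members (-0.087 to 0.031 over the 16 combinations of 1 array from each pool), against -0.005 over all probes, and was 0.005 with mitochondrial ribosomal proteins as the scale. No member reached 1.5-fold in this measure, against 1.44% of all probes. It ran from -0.31 on the dim Rpl6 probe to 0.22 on an Rps27 probe that lay in a block where the EE-C arrays differed. DE gave opposite directions without overlap in the 2 rearing conditions for 5 of 153 member probes (4.31% of all probes), and rearing did so in clean air and under DE for 3 of 153 (3.71% of all probes).

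The genes with a TOP tract at the annotated start were set beside those without. In C-DE/C-C the 10 measured genes with a tract had a median of -0.048, and 0 of 10 were higher in C-DE, while the 47 without one had a median of 0.001, and 26 of these lay above 0. In EE-DE/EE-C the medians were -0.051 and -0.030, with 1 of 10 and 13 of 47 genes higher in EE-DE. In EE-C/C-C they were 0.072 and 0.055, with 9 of 10 and 41 of 47 genes higher in EE-C. In EE-DE/C-DE they were 0.055 and 0.018, with 9 of 10 and 31 of 47 higher, and in EE-DE/C-C 0.003 and 0.030, with 5 of 10 and 32 of 47 higher. The whole-family offsets between duplicate arrays reached 0.049, and the genes with a tract were those whose annotated start happened to fall on the tract. Rps27 was the 1 gene with a tract that was higher in EE-DE/EE-C (0.02) and the 1 that was lower in EE-C/C-C (-0.01). The array annotation placed its 3 measured probes on chromosome 9, while the tract shown lies on chromosome 3.

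The 4 measured paralogs had no common direction. Rps27l, a paralog of Rps27, gave 0.07 in EE-C/C-C and -0.03 in C-DE/C-C, and Rpl22l1, Rpl7l1 and Rps4y2 are described above. The arrays overlapped for both Rps27l values, which became -0.02 without the first EE-C array and 0.01 without the first C-C array in the same order. Rps19bp1 gave 0.07 in both rearing comparisons with overlap, which was -0.02 in EE-C/C-C without the first C-C array and -0.01 in EE-DE/C-DE without the first EE-DE array. The 9 probes of the X-linked genes Rpl10, Rpl36a, Rpl39 and Rps4x had medians of 0.046 in EE-C/C-C, 0.016 in EE-DE/C-DE, -0.017 in C-DE/C-C and, for the EE-DE/EE-C comparison, -0.030, close to those of the family.

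Some values may belong in part to copies of the genes. For 11 probes of 5 genes (Rpl13, Rpl36, Rps27, Rps29 and Rps4x), the array annotation gave a chromosome other than that of the RefSeq gene. The Rps27 probes were placed on chromosome 9, where RefSeq lists Rps27rt, a retrogene. A further 97 probes of other names shared at least 25 bases with a member probe, touching 40 member genes, and 14 of them passed the filter. Of these 14, 13 were higher in EE-C/C-C, with a median of 0.061. Gm15421 shared 54 bases with the Rpl22l1 probe and gave 0.07 in EE-C/C-C, against 0.20 for Rpl22l1.

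Of 6 ribosomal protein genes outside the naming rule on the array, 5 passed on 6 probes, and none was past 1.5-fold. By gene, their median was -0.073 in C-DE/C-C, with 3 of 5 lower, and -0.039 in EE-DE/EE-C, with 4 of 5 lower. By probe, the medians were -0.088 and -0.074. In the rearing comparisons the gene medians were 0.005 in EE-C/C-C, with 4 of 5 higher, and 0.006 in EE-DE/C-DE, with 3 of 5 higher. By probe, they were 0.030, with 5 of 6 higher, and 0.003, with 3 of 6 higher. Fau, whose product includes the 40S protein Rps30, gave 0.04 in C-DE/C-C and 0.10 (0.05 to 0.15) in EE-C/C-C, both without overlap. Rplp0, the stalk protein that binds Rplp1 and Rplp2, gave -0.11 under DE in the standard cage and -0.21 under DE with enrichment. Among 16 translation factors, 13 were higher in EE-C/C-C, with a median of 0.047 by gene. By probe, 18 of 23 were higher (78.3%, against 52.1% of all probes), with a median of 0.024. Only Eif3h passed 1.5-fold, with -0.61 in EE-C/C-C against 0.63 in EE-DE/EE-C, and its pairings ran from -1.28 to 0.06 and from -0.01 to 1.28. Among 32 ribosome biogenesis genes, Sdad1, a nucleolar protein of 60S assembly that the study picked on these arrays, was past 1.5-fold with -0.63 in C-DE/C-C, and EE-DE/C-C gave -0.61, as means of 2 probes. These probes differed: in C-DE/C-C the first gave -1.14 (-1.54 to -0.75), and the second, at -0.11 (-0.14 to -0.07), was not past 1.5-fold. The first probe also gave -0.75 (-1.24 to -0.25) in EE-C/C-C, or -0.43 without the first C-C array, while the second gave -0.06 with overlap there. The paper's RT-PCR, on RNA of individual mice, also found Sdad1 lower in C-DE and in EE-DE than in C-C. The other 31 genes were not past 1.5-fold in any comparison, and the list's medians by gene lay between -0.018 and 0.016. Of 14 regulators of ribosomal protein synthesis, none was past 1.5-fold. By gene, their median was -0.045 in EE-C/C-C, with 9 of 14 lower, and -0.025 in EE-DE/C-DE, with 10 of 14 lower. By probe, 7 of 18 were lower and 1 higher without overlap in EE-C/C-C (38.9% lower, against 17.6% of all probes). In EE-DE/C-DE, 7 were lower and 2 higher in that way (21.1% of all probes in each direction). For DE against clean air, the gene medians were -0.003 in the standard cage and 0.033 with enrichment. Mtor gave 0.03 in C-DE/C-C with 0.01 in EE-C/C-C, both with overlap. Larp1, the protein that binds TOP tracts, gave -0.12 in EE-C/C-C and -0.08 in EE-DE/C-DE, both without overlap.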

How the data were processed

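Per the file headers, the authors deposited 1-colour scanner intensities from Agilent Feature Extraction 10.7.3.1, with the local background subtracted and unscaled between arrays. A series table of log2 values, also deposited by the authors, followed the log2 signals after 75th percentile scaling and centring per probe: over the 153 member probes the sources lay within 0.0144, and the column medians ran from -0.0113 to 0.0183. They served as an alternative.

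Here, processed signals were taken to log2, and the 75th percentile of an array's noncontrol spots was subtracted. Spots needed an accession as systematic name, signal well above background on all 8 arrays and no spot or background outlier flag. Spots of a probe were averaged, and a gene is the mean of its probes. No p-value was computed. Array number limits the precision. Named were probes past 1.5-fold, the 5 largest rises and falls per comparison, paralogs, members that failed the filter, Rps19bp1 and X-linked genes. Values of 2 members are not reported here, though counts and medians include them. Members and lists were chosen with earlier results of these data known. The calling was tested on simulated data. Symbols were matched to RefSeq for all 83 genes, and 2 differed (Rps3a is Rps3a1 and Rps4y2 is Rps4l there).

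Alternatives were normexp (offset 50), scaling by quantiles or by the passing spots' median, the series table, linear means, looser or no signal filters, outliers kept, all spots, the brighter 75%, genes for probes, core genes only, blocks left out, other thresholds and each array left out. After the data were seen, 3 were added: background flags ignored, mitochondrial ribosomal proteins as scale and member signals of at least 1000. The software was R 4.3.3, limma 3.58.1, Python 3.11.15, pandas 2.3.3, numpy 2.4.6 and matplotlib 3.10.9.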

Additional observations from a re-analysis of the deposited data

Results flagged for a closer look

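Rpl8, a 60S protein near the peptidyl transferase centre, was the 1 named probe whose arrays moved in opposite directions in the 2 settings of a contrast. It read 6.78 and 6.76 in C-C, 6.84 and 6.81 in C-DE, 6.81 and 6.82 in EE-C and 6.71 and 6.78 in EE-DE. DE gave 0.06 in the standard cage and -0.07 with enrichment, so EE-DE/EE-C minus C-DE/C-C was -0.12. Without the first EE-DE array the value with enrichment was -0.03. By the same arithmetic, rearing gave 0.04 in clean air and -0.08 under DE (-0.05 without that array), and that difference was also -0.12. The difference was not tested, since each group is 1 pool.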

How the results depend on the processing

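Medians of the member probes were recomputed under 16 alternatives besides leaving out arrays, and 15 of 16 kept the sign in each comparison except C-DE/C-C, where 14 did. The median of EE-DE/EE-C was -0.058 with normexp and 0.0011 with quantile normalization, and that of EE-DE/C-C was 0.057 with quantile normalization. With mitochondrial ribosomal proteins as the scale, the medians were -0.0069 in EE-C/C-C, -0.0020 in EE-DE/C-DE and -0.027 in EE-DE/C-C. Leaving out single arrays gave -0.031 to 0.019 in C-DE/C-C, -0.044 to -0.0090 for EE-DE/EE-C, 0.029 to 0.079 for EE-C/C-C, 0.0092 to 0.044 for EE-DE/C-DE, 0.001 to 0.045 in EE-DE/C-C and -0.052 to -0.000 for the difference of differences. The sign of C-DE/C-C turned without the first C-C array (0.019) or the second C-DE array (0.015).

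The count past 1.5-fold, 0 in each comparison, became 1 in EE-C/C-C with normexp (Rps4y2). With the looser signal flag or with no signal filter it was 2 in C-DE/C-C, 1 in EE-C/C-C and 2 in EE-DE/C-DE and 1 in EE-DE/C-C. At 1.2-fold it was 1 in EE-C/C-C and 1 in EE-DE/C-DE. Without single arrays it was 0 to 1 in EE-C/C-C and also in EE-DE/EE-C, reaching 1 without the second EE-C array. The 34 probes higher in both rearing comparisons became 8 on the mitochondrial scale and 18 with genes in place of probes (76 genes), and 35 to 50 without single arrays. The 18 probes lower in both exposure comparisons became 29 with normexp, 9 with quantile normalization and 9 with genes in place of probes, and 20 to 34 without single arrays. A pool of 1 array meets the rule of no overlap more easily, so the counts without single arrays could not fall. The cause of the other shifts was not tested. Apart from the 1.2-fold counts, these recounts are given without their shares over all probes and are not read as results about the members. For the 50 named values, each a probe in 1 comparison, 697 of 717 values recomputed with all arrays stayed within the spread of the pairings and 0 changed sign. Of 200 values without 1 array, which lie within the range of the pairings by construction, 8 changed sign. No paired analysis was possible because each group is 1 pool and array numbers do not pair samples.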
